A study of Rattus norvegicus with 24 samples.

Results

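Genes of the stretch-sensing apparatus of striated muscle were followed in the tibialis anterior (TA) of aged rats whose hind limb was silenced, allowed to recover and silenced again. The 9 genes are the muscle ankyrin repeat genes Ankrd1, Ankrd2 and Ankrd23, the LIM-domain genes Csrp3 and Lmcd1, the Xin repeat genes Xirp1 and Xirp2, and Smpx and Nrap. The genes were taken by symbol, with the row of the highest mean kept for each, and 8 of the 9 had a row among the 13458 symbols of the table. Xirp1 was not analysed here. Ankrd1 and Lmcd1 were chosen by their values in these data as well as by name, a high level in silenced limbs for the former and a difference between the periods of silencing for the latter, so their values in comparisons that involve silenced limbs are given as a description with no test.

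The muscle ankyrin repeat proteins bind the spring region of titin in the I-band and are also found in the nucleus, where they can modulate transcription. Csrp3, also called muscle LIM protein, sits at the Z-disc and in the nucleus, and the Xin repeat and nebulin-related proteins bind actin where thin filaments meet membranes or new sarcomeres are built. Several of these genes are known to respond to stretch, overload or denervation of muscle, and Ankrd2, Csrp3 and Smpx are known for higher expression in slow than in fast muscle.

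Bulk polyA RNA-seq covered the left and right TA of 12 male Fischer 344 rats aged 23 months. In 9 animals tetrodotoxin (TTX), a sodium channel blocker, was delivered by an osmotic pump to the left common peroneal nerve, which stops the dorsiflexor muscles from being activated while leaving the nerve in place. Left limbs were sampled after 6 to 7 days of TTX (atrophy, n = 3), after 9 days of recovery from that block (recovery, n = 3), or after a second TTX period of 5 to 6 days that followed the recovery (repeated atrophy, n = 3). The 9 right limbs of these animals, which received no TTX, were pooled as control, and 3 sham animals, 1 for each time point, gave 3 left and 3 right limbs. The comparisons ask what the TA expressed at the end of each period relative to untreated contralateral muscle, and whether the second period of silencing differed from the first. All limbs came from aged animals, so no group shows how young muscle responds, and the control limbs belong to animals whose other limb was treated.

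Expression is given in CPM, a scale on which each library adds up to 1000000. A log2 fold change (FC) below is a difference of log2(CPM + 1) from limma, and a gene passed where the FC was at least 1.2 and the Benjamini-Hochberg adjusted p over all rows was at most 0.05. At the depth of these libraries 1 read was worth 0.0324 to 0.0530 CPM, and the 10 most abundant genes took 24.3 to 32.8% of the reads in control limbs, 13.0 and 15.6% in atrophy replicates 1 and 3, and 25.6% in atrophy replicate 2. That limb stood apart, and it was the lowest atrophy limb for Ankrd1, Ankrd2, Ankrd23, Csrp3, Xirp2 and Smpx. Over all rows the median log2 FC stood at 0.22 in atrophy and 0.20 in repeated atrophy against control, and 0.02 in recovery, so fold changes of silenced limbs are read relative to those medians, and rescaled values come from libraries rescaled by a trimmed mean of ratios, which brings the medians to −0.002, −0.008 and 0.016. All 3 comparisons with control share the same 9 control limbs. In bulk muscle, fewer cells of a type and less RNA per cell cannot be told apart. Separate animals stand behind the 3 limbs of each group.

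In the control limbs, compared per kilobase of gene model, Ankrd23 was the most abundant member at 1079 ± 293 CPM per kilobase (mean ± SD, n = 9). Nrap at 295 ± 141, Ankrd1 at 225 ± 193, Xirp2 at 219 ± 39.9 and Csrp3 at 201 ± 144 CPM per kilobase followed and did not differ beyond their spread. Smpx stood at 125 ± 41.1, Lmcd1 at 60.6 ± 12.8 and Ankrd2 at 33.9 ± 15.01 CPM per kilobase. The plot of member levels shows all 24 limbs.

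**Figure D1:**
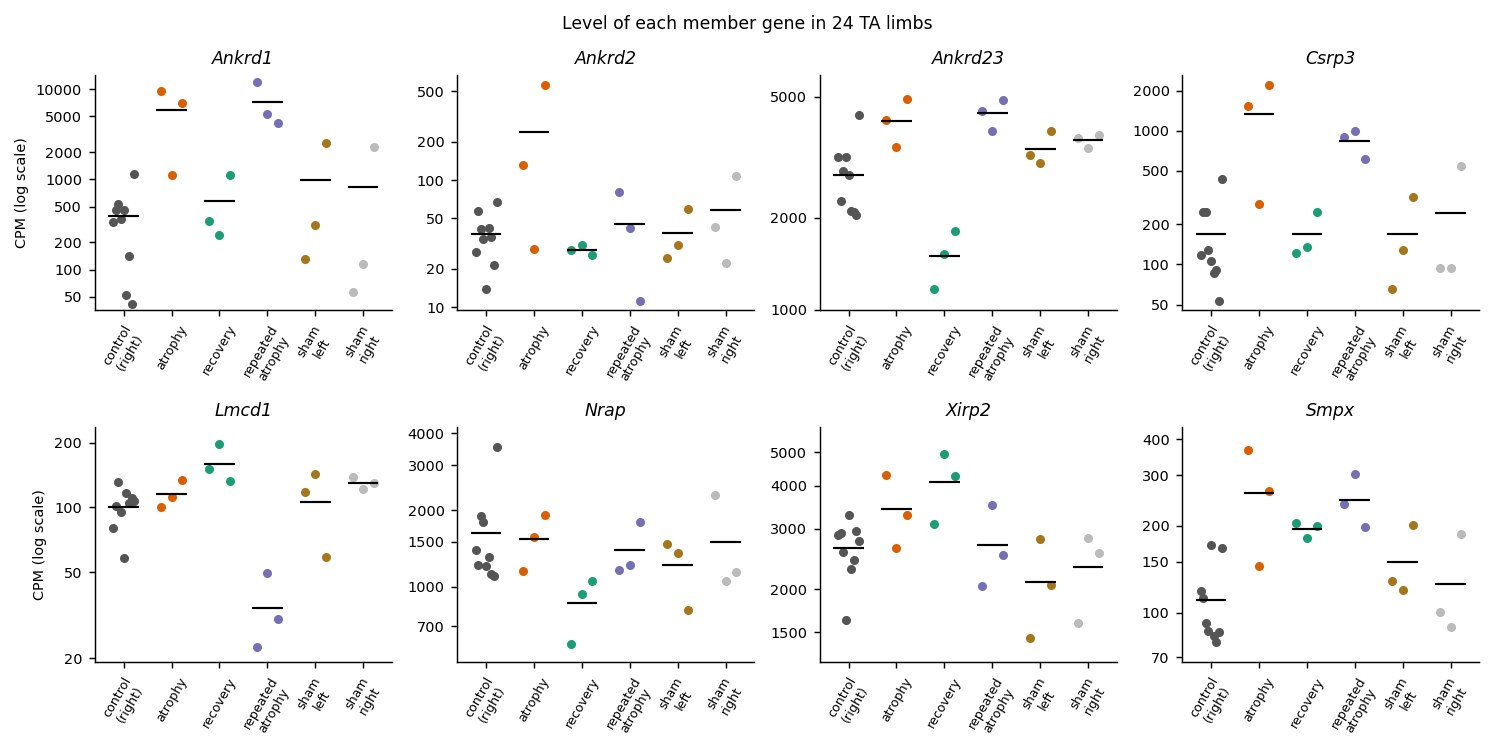
CPM on a log axis of each member in the 9 control limbs, the 3 atrophy, 3 recovery and 3 repeated atrophy limbs, and the 3 left and 3 right limbs of sham animals; points are limbs and lines are group means. Ankrd1, Csrp3 and Smpx lie above every control limb in repeated atrophy, Lmcd1 lies below every control limb there, and atrophy replicate 2, the middle atrophy point, sits apart from the other atrophy limbs for Ankrd1, Csrp3 and Smpx.

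The promoters of Ankrd23, Smpx and Lmcd1, as listed by RefSeq (GRCr8), are shown because these members followed different courses over the 3 periods. They span 250 bases up to the start, with E-boxes (CANNTG, bound by myogenic basic helix-loop-helix factors) and MCAT elements (CATTCC, bound by TEAD factors) in capitals. They lie at chr9:46274511-46274760 minus strand, chrX:41107138-41107387 minus strand and chr4:146948743-146948992 plus strand.
Ankrd23: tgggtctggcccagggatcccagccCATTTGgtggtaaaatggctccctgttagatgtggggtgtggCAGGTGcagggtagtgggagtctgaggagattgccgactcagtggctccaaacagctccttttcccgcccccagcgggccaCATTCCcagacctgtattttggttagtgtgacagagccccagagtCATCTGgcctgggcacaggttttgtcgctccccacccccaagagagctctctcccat
Smpx: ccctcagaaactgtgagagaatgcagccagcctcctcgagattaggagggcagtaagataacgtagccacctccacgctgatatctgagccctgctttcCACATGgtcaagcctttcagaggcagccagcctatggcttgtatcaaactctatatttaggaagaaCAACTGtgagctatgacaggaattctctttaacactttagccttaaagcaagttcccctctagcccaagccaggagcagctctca
Lmcd1: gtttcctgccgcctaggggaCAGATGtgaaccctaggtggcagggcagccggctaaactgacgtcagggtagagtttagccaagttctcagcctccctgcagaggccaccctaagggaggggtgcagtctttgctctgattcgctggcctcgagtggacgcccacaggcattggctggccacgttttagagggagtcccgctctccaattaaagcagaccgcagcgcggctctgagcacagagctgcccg
Motifs were searched on both strands. Ankrd23 held 3 E-boxes and the MCAT match, which starts 102 bases before the start, Smpx held 2 E-boxes and Lmcd1 held 1. Of all 27456 listed promoters of that length, 65.2% held an E-box and 11.8% an MCAT match, so an E-box match is common. Of the 5 members with an entry, Ankrd23 was the one with an MCAT match, and none held a CArG box (1.5% of all promoters), the element of serum response factor. Smpx and Xirp2 each held a MEF2 match (3.07%), and all 5 held the NFAT core GGAAA once (56.7%). Ankrd1, Csrp3 and Nrap had no entry.

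Ankrd1 (chr1:233815860-233824410, minus strand, rn7) encodes the cardiac ankyrin repeat protein, a titin-binding factor induced by mechanical and denervation stress. Control limbs held 42.0 to 1144 CPM with a median of 360.2. Atrophy limbs held 9472, 1131 and 6997 CPM, and repeated atrophy limbs 12114, 5290.3 and 4202 CPM. Every repeated atrophy limb was above every control limb, whereas atrophy replicate 2, at 1131 CPM, lay just under the highest control limb. No overlap with control in either direction was seen in 5.27% of all rows in atrophy, 10.4% in recovery and 20.4% in repeated atrophy. The mean was 14.96 times the control mean in atrophy and 18.4 times in repeated atrophy. The log2 difference from control was 4.03 in atrophy and 4.64 in repeated atrophy, a rise for which the gene was partly chosen. Without atrophy replicate 2 the atrophy value was 5.08, and after rescaling the values were 3.65 and 4.26. Once animal was a block, so that each left limb is compared with the right limb of the same animal, they were 2.90 in atrophy and 3.86 in repeated atrophy.

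Recovery limbs held 348, 242 and 1129 CPM of Ankrd1, and they overlapped control (log2 FC 0.83, SE 0.85, adjusted p = 0.587). Compared with each animal's own right limb the picture was different, because the right limbs of the 3 recovery animals were among the lowest of all controls at 52.4, 139.9 and 42.0 CPM. Left minus right on the log2 scale was 2.71, 0.79 and 4.72 in those animals, with a mean of 2.74 ± 1.96 (SD, n = 3). With the animal as a block the recovery value was 2.74 (SE 0.71, adjusted p = 0.131), higher in the left limb of 3 of 3 animals, and it did not pass. Without recovery animal 3, so with its left limb at 1129 CPM and its right limb at 42.0 CPM both left out, the value against pooled control was −0.15.

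Ankrd23 (chr9:38773240-38779840, minus strand) encodes the diabetes-related member of the family and lay high in every limb. Of the 5 members with a promoter entry, it is the one with an MCAT match. Control limbs held 2051 to 4366 CPM with a median of 2765. Recovery limbs, at 1173, 1520.3 and 1815 CPM, all lay below the lowest control limb, while atrophy limbs held 4183, 3424 and 4934 and repeated atrophy limbs 4494, 3873 and 4867 CPM. Ankrd23 fell in recovery (log2 FC −0.86, SE 0.25, adjusted p = 0.0409), to 1503 ± 322 from 2764 ± 752 CPM. With the animal as a block the difference was −0.50 and no longer passed (adjusted p = 0.299). In repeated atrophy Ankrd23 was higher than control (log2 FC 0.71, SE 0.25, adjusted p = 0.0319), but the call was lost with the block (adjusted p = 0.0579) and after rescaling (0.33, adjusted p = 0.33). In atrophy the value was 0.62 (adjusted p = 0.074), which did not pass.

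The left limbs of the 3 periods, which come from different animals, were also compared with each other. Ankrd23 was lower in recovery than in atrophy (log2 FC −1.48, SE 0.30, adjusted p = 0.00783) and higher in repeated atrophy than in recovery (log2 FC 1.57, SE 0.30, adjusted p = 0.00217), with no overlap between limbs in either comparison. No overlap in the same pair of groups was seen in 34% and 42.5% of all rows. With the animal as a block these values were −0.79 (adjusted p = 0.612) and 1.18 (adjusted p = 0.135), and neither passed.

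Ankrd2 (chr1:240847111-240856564, plus strand) encodes the stretch-responsive ankyrin repeat protein known from slow muscle, and it was the least abundant of the 3. Control limbs held 13.8 to 67.3 CPM with a median of 35.8. The atrophy limbs held 130.3, 28.9 and 562 CPM and differed widely among themselves. Replicate 3 was above every control limb by a wide margin and replicate 2 lay inside the control range. Ankrd2 was higher in atrophy (log2 FC 1.88, SE 0.64, adjusted p = 0.0426), yet without atrophy replicate 3 the log2 FC was 0.94 (adjusted p = 0.3), with the animal as a block it was 2.09 (adjusted p = 0.149), and after rescaling it was 1.51 (adjusted p = 0.138). Within animals, left minus right in atrophy was 2.22, 1.02 and 3.04, higher in 3 of 3. In repeated atrophy the limbs held 81.1, 41.9 and 11.2 CPM, on both sides of the control range, with a log2 FC of −0.02 (adjusted p = 0.989), and recovery limbs held 28.0, 30.6 and 25.9 CPM.

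The balance of the 3 ankyrin repeat genes was different in silenced limbs. In control limbs Ankrd23 made up 82.7 ± 8.32% of the summed CPM per kilobase of the family and Ankrd1 14.6 ± 8.49% (SD, n = 9). In repeated atrophy Ankrd1 made up 67.1 ± 11.7% and Ankrd23 32.3 ± 12.0% (SD, n = 3). In atrophy Ankrd1 took 32.3% in replicate 2 and up to 75.7% in the other limbs, and in recovery its share was 31.5 ± 14.5%. Control limbs spanned 2.86 to 27.1%, so every silenced limb had a larger Ankrd1 share than every control limb. Since Ankrd1 was chosen partly for its level in silenced limbs, these shares are a description. Ankrd2 stayed between 0.232 and 7.81% of the sum in all control and left limbs of TTX animals.

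**Figure D2:**
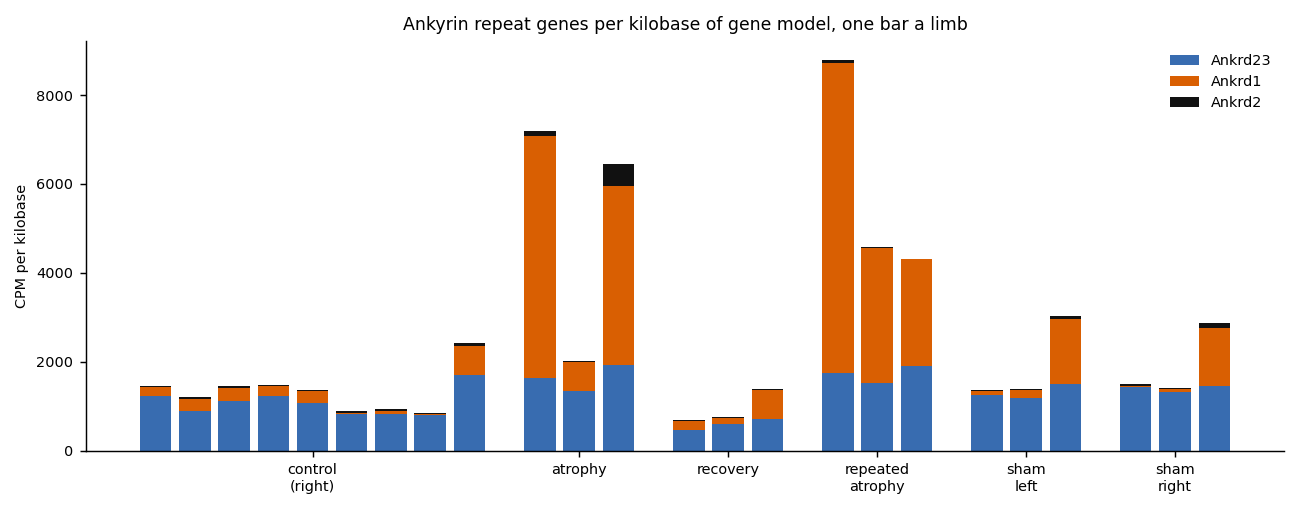
Summed CPM per kilobase of Ankrd23, Ankrd1 and Ankrd2, 1 stacked bar for each of the 24 limbs by group. Bars of control limbs reach 844 to 2422 CPM per kilobase and are mostly Ankrd23, those of repeated atrophy limbs reach 4322 to 8782 and are mostly Ankrd1, and both limbs of the sham animal of the repeated atrophy time point, the last bar of each sham group, hold about as much Ankrd1 as Ankrd23.

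Csrp3 (chr1:98528067-98538136, minus strand), the Z-disc LIM protein of slow and cardiac muscle, was higher in both silenced groups. Control limbs held 53.5 to 433 CPM with a median of 118. Atrophy limbs held 1537, 283 and 2198 CPM and repeated atrophy limbs 891, 992 and 612 CPM. The repeated atrophy limbs lay above every control limb, whereas atrophy replicate 2 lay within the control range. Csrp3 rose in atrophy (log2 FC 2.83, SE 0.56, adjusted p = 0.00651) and in repeated atrophy (log2 FC 2.55, SE 0.56, adjusted p = 0.00228). The repeated atrophy call held with animal as a block (2.02, adjusted p = 0.00693) and in each of the 21 alternatives run, where adjusted p was at most 0.0249. After rescaling the values were 2.45 in atrophy and 2.17 in repeated atrophy. The atrophy call did not hold with the block (2.48, adjusted p = 0.149) or without atrophy replicate 1 (2.48, adjusted p = 0.13).

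In recovery, Csrp3 limbs held 122, 135 and 246 CPM and spread inside the control range (log2 FC 0.20, adjusted p = 0.865). Within animals Csrp3 was higher in the left limb of 3 of 3 recovery animals (left minus right 0.49, 0.57 and 2.18), whose right limbs held 86.3, 90.3 and 53.5 CPM, and with the block the value was 1.08 (SE 0.40, unadjusted p = 0.0208, adjusted p = 0.221), which did not pass. Recovery limbs were below all atrophy limbs and all repeated atrophy limbs (−2.62, adjusted p = 0.0181 against atrophy, and 2.35, adjusted p = 0.0183 for repeated atrophy against recovery). The animal block here compares left-minus-right differences between periods. On that measure the values were −1.40 (adjusted p = 0.604) and 0.94 (adjusted p = 0.379), and neither passed.

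Lmcd1 (chr4:145393153-145452050, plus strand) encodes a LIM and cysteine-rich domain protein known as a transcriptional cofactor in cardiac and skeletal muscle. Control limbs held 58.2 to 132 CPM with a median of 105. Repeated atrophy limbs held 22.5, 49.7 and 30.3 CPM, every one below the lowest control limb, while atrophy limbs held 100.4, 112 and 133 and recovery limbs 150.3, 197 and 132 CPM. Its mean was 0.339 of the control mean in repeated atrophy, against 1.15 in atrophy and 1.59 in recovery. The log2 difference between repeated atrophy and atrophy, −1.79, is the value for which the gene was chosen. All 3 recovery limbs lay above the highest control limb of 131.7 CPM, the lowest by under 1 CPM, and the difference did not pass (log2 FC 0.67, SE 0.23, adjusted p = 0.0705). Of the sham limbs, the right limb of the atrophy time point, at 138.3 CPM, and the left limb of the recovery time point, at 142 CPM, were also above that control limb. Within animals, left minus right was −2.13, −1.39 and −1.62 in repeated atrophy and positive in 3 of 3 animals in both atrophy and recovery. The left limb of the sham animal of the repeated atrophy time point also held a low level, 59.2 CPM, against 129.2 CPM in its right limb.

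Smpx (chrX:37234292-37292081, minus strand), the small muscle protein of the costamere that is known to respond to stretch, was higher in both silenced groups. Control limbs held 79.0 to 172 CPM with a median of 92.0. Atrophy limbs held 369, 145 and 265, recovery limbs 204, 182 and 201 and repeated atrophy limbs 238, 303 and 199 CPM. All recovery and all repeated atrophy limbs were above every control limb, and atrophy replicate 2 was again inside the control range. Smpx rose in atrophy (log2 FC 1.18, SE 0.26, adjusted p = 0.0087) and in repeated atrophy (log2 FC 1.19, SE 0.26, adjusted p = 0.00243). The repeated atrophy call held with animal as a block (1.33, adjusted p = 0.00808) and in each of the 21 alternatives, with a log2 FC between 0.80 and 1.33. The atrophy call was lost with the block (0.68, adjusted p = 0.232), with the left limb lower than the right in 1 of 3 animals, and without atrophy replicate 1 (0.90, adjusted p = 0.145). In recovery Smpx missed the threshold narrowly (log2 FC 0.87, SE 0.26, adjusted p = 0.0505), and it passed after rescaling (0.86, adjusted p = 0.0172) but not with the block (1.24, adjusted p = 0.107). Left minus right in recovery was nevertheless even, at 1.29, 1.19 and 1.22.

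Xirp2 (chr3:52126242-52213094, plus strand), an actin-binding Xin repeat protein of the muscle-tendon junction and Z-disc, did not pass in any comparison with control. Control limbs held 1635 to 3297 CPM with a median of 2766, and recovery limbs held 3095, 4939 and 4280.4 CPM. One recovery limb lay within the control range and the others above it (log2 FC 0.64, SE 0.25, adjusted p = 0.117). Atrophy limbs held 4302, 2645 and 3297 CPM (log2 FC 0.37, adjusted p = 0.299) and repeated atrophy limbs 2047, 3515 and 2523 CPM (0.02, adjusted p = 0.963). Repeated atrophy against recovery was −0.99 after rescaling (adjusted p = 0.0309), whereas without rescaling the value was −0.62 (adjusted p = 0.139) and did not pass.

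Nrap (chr1:255350113-255427694, minus strand) encodes a nebulin-related anchoring protein that takes part in myofibril assembly. Control limbs held 1101 to 3535 CPM with a median of 1309.7, and recovery limbs, at 594, 938 and 1056 CPM, all lay below the lowest of them. The right limb of the sham animal of the recovery time point, at 1055 CPM, was below it as well. The recovery difference did not pass (log2 FC −0.84, SE 0.30, adjusted p = 0.0925). Atrophy (0.01, adjusted p = 0.993) and repeated atrophy (−0.14, adjusted p = 0.78) overlapped control. The table holds 2 rows for Nrap with the same coordinates and model lengths of 5483 and 5378 bases. The longer row, used here, carried 67.3 ± 4.03% of the reads of both in control, 53.4 ± 4.88% in atrophy, 66.8 ± 8.98% in recovery and 55.5 ± 13.8% in repeated atrophy, so the split between the rows was not even across groups. With both rows summed, Nrap was lower in recovery than in atrophy (−1.17, adjusted p = 0.0369), while with the longer row alone the value was −0.85 (adjusted p = 0.117). With animal as a block, which compares left-minus-right differences between periods, the longer row gave −0.23 (adjusted p = 0.922) and did not pass. The summed rows were not fitted with the block.

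Counted together, 3 of the 6 members that were not chosen for silenced limbs passed in atrophy against control, all higher (Ankrd2, Csrp3 and Smpx), where 22.6% of all 14031 rows passed (20.3% higher, 2.33% lower). In repeated atrophy 3 of 6 passed, all higher (Ankrd23, Csrp3 and Smpx), where 34.3% of all rows passed (28.1% higher, 6.24% lower). In recovery 1 of 8 passed, Ankrd23, which was lower, where 7.73% of rows passed (4.4% higher, 3.33% lower). Recovery against atrophy had 2 of 6, both lower (background 17.9%, with 3.34% higher and 14.5% lower), and repeated atrophy against recovery had 2 of 6, both higher (background 27.2%, with 21% higher and 6.29% lower), in each case Ankrd23 and Csrp3. None of 6 passed between repeated atrophy and atrophy, where limma called 0.0356% of rows (0.0143% higher, 0.0214% lower). At an unadjusted p under 0.05 that comparison held 1 of the 6, Ankrd2 (−1.90, unadjusted p = 0.0264, adjusted p = 0.691), against 6.3% of all rows. With the animal as a block, 0 of 6 passed in atrophy (background 0%), 0 of 8 in recovery (0.0641%) and 2 of 6, Csrp3 and Smpx, in repeated atrophy (27.1%). The same fit gave 0 of 6 for recovery against atrophy (0.0143%), for repeated atrophy against recovery (0.0855%) and for repeated atrophy against atrophy (0%). Between periods it compares left-minus-right differences. Without atrophy replicate 1, no member and 1 row in all passed in atrophy.

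**Figure D3:**
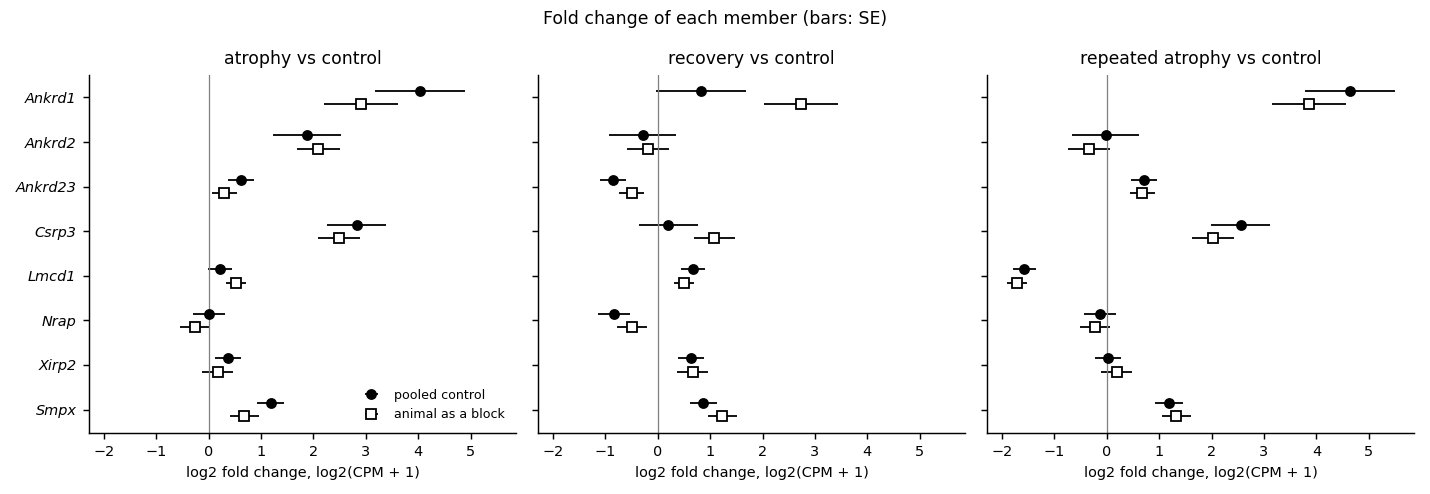
Log2 fold change of log2(CPM + 1) with its SE for each member in atrophy, recovery and repeated atrophy against control, from the fit with pooled controls (filled) and with animal as a block (open). Ankrd1 in recovery lies at 0.83 with pooled controls and at 2.74 with the block, and Csrp3 and Smpx in repeated atrophy lie above 0 in both fits.

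The contralateral limbs were also compared across time points. Right limbs of recovery animals held 78.1 ± 53.8 CPM of Ankrd1, those of atrophy animals 648 ± 434 and those of repeated atrophy animals 450.0 ± 85.9 (SD, n = 3 each), with no overlap between the recovery time point and either of the others. In a limma F test over the 3 time points, Ankrd1 had an unadjusted p of 0.000205 and an adjusted p of 0.113. Smpx was also at its lowest there, at 82.4 ± 3.26 CPM against 153 ± 29.5 in atrophy animals and 96.9 ± 13.8 in repeated atrophy animals (unadjusted p = 0.00136, adjusted p = 0.157). Right limbs of recovery animals held 76.7 ± 20.2 CPM of Csrp3 (adjusted p = 0.322) and 2087 ± 32.2 CPM of Ankrd23 (adjusted p = 0.334), in each case with no overlap with the right limbs of the other time points. These 4 members of 8 were lower than at both other time points with no overlap, as were 8.33% of all 13600 rows tested. None of the 8 members and 0% of rows passed with limma, and 4 of 8 had an unadjusted p under 0.05, against 13.9% of rows. Without control replicate 1, the right limb of atrophy animal 1, Ankrd1 and Smpx passed among 330 rows.

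**Figure D4:**
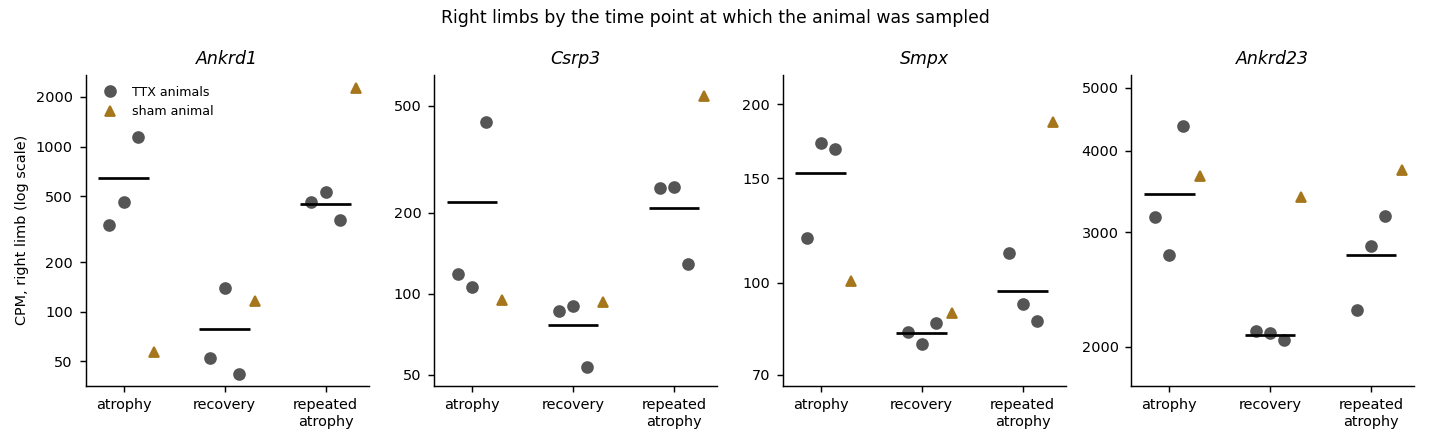
CPM on a log axis of Ankrd1, Csrp3, Smpx and Ankrd23 in right limbs, by the time point at which the animal was sampled; circles are the 3 right limbs of TTX animals with their mean as a line, and the triangle is the right limb of the 1 sham animal of that time point. Right limbs of recovery animals hold 42.0 to 140 CPM of Ankrd1 and those of the other TTX animals 337 to 1144.

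Sham animals gave the level without any TTX. Their right limbs held 57.0, 116 and 2272 CPM of Ankrd1 and their left limbs 132, 310.1 and 2544 CPM, in the order atrophy, recovery and repeated atrophy time point. Both limbs of the repeated atrophy sham animal therefore lay above every control limb, and its right limb, at 543 CPM, was above every control limb for Csrp3 as well, while its left limb, at 317 CPM, was not. For Smpx both limbs of that animal, at 201.0 CPM on the left and 187 CPM on the right, were above every control limb, and the lowest repeated atrophy limb, at 199 CPM, was below its left limb. Its right limb was also above every control limb for Ankrd2, at 108 CPM, and its left limb was below every control limb for Nrap, at 809.9 CPM. Both limbs of the sham animal of the atrophy time point were below every control limb for Xirp2, at 1445 CPM on the left and 1592 CPM on the right. How often a single sham limb lay outside the control range over all rows was not counted, so these limbs are a description. No member passed for sham left limbs against control, for sham left against sham right limbs or for control against sham right limbs, and neither did any other row with limma (0% called in each). At an unadjusted p under 0.05 these comparisons held 13.8, 4.27 and 8.17% of all rows. Ankrd1 was higher in the left limb of 3 of 3 sham animals (0.92, SE 0.24, unadjusted p = 0.011, adjusted p = 0.936), as was Smpx (0.29, unadjusted p = 0.0229, adjusted p = 0.936).

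Set against those sham differences, left minus right of Csrp3 in repeated atrophy, 2.02 ± 0.20, exceeded the sham value of −0.28 ± 0.65 by 2.31 (SE 0.55, limma adjusted p = 0.0409), and it was the 1 of 6 members that passed (background 4.36%). Adjusted p ranged from 0.00979 to 0.154 when each of the 12 animals was left out in turn. The call was kept without atrophy animal 1, atrophy animal 2 or recovery animal 3 and lost without any 1 of the other 9. Smpx differed from sham by 1.03 (adjusted p = 0.0955) and Ankrd23 by 0.78 (adjusted p = 0.12). In atrophy the Csrp3 difference from sham was 2.76 (adjusted p = 0.543) and that of Ankrd2 2.48 (adjusted p = 0.667), where 0% of rows passed. Without atrophy replicate 2 both passed (3.30, adjusted p = 0.0179, and 3.02, adjusted p = 0.0266). In recovery no member passed against sham (background 0%), with Ankrd1 at 1.81 (adjusted p = 0.804) and Smpx at 0.94 (adjusted p = 0.795).

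**Figure D5:**
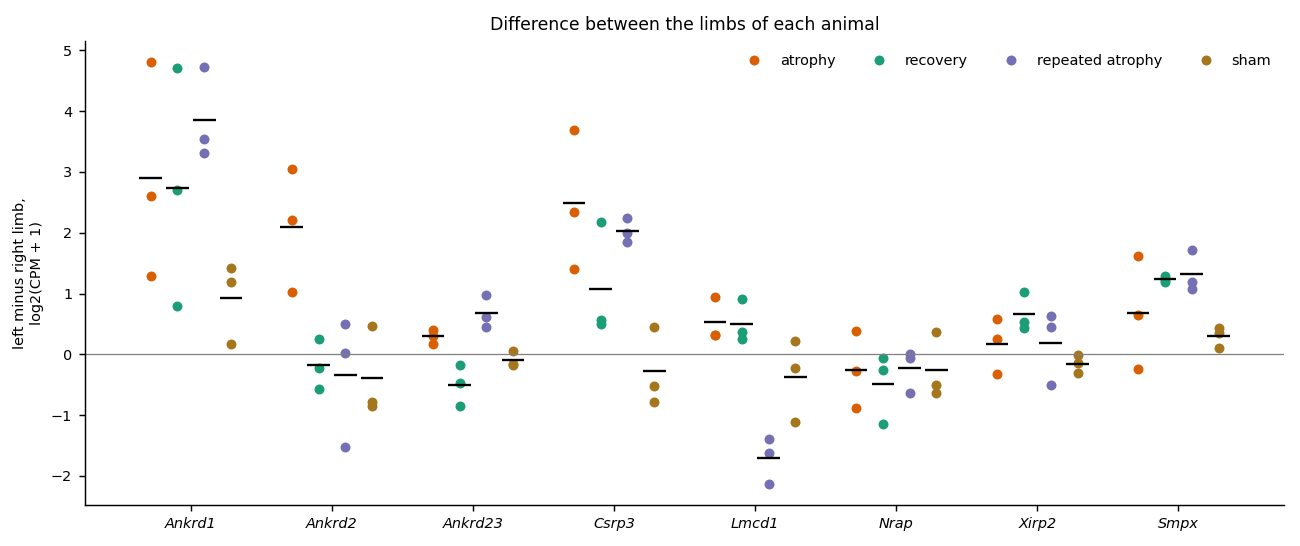
Difference between left and right limb in log2(CPM + 1) for each member and animal, with the mean of each group of 3 animals as a line. Ankrd1 is above 0 in all 12 animals, from 0.16 in a sham animal to 4.81 in an atrophy animal, and Lmcd1 is below 0 in all 3 repeated atrophy animals, from −2.13 to −1.39.

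The partners of these proteins at titin and the Z-disc changed in both directions. Of 29 tested, 10 were higher and 6 lower in atrophy (median log2 FC 0.45 against 0.22 over all rows), 2 higher and 2 lower in recovery, and 10 higher and 9 lower in repeated atrophy (median 0.25 against 0.20). Of all rows, 20.3% were higher and 2.33% lower in atrophy, 4.4% and 3.33% in recovery, and 28.1% and 6.24% in repeated atrophy. In repeated atrophy Synpo2 (−2.29), which encodes the actin-binding myopodin, Actn3 (−2.07), the alpha-actinin of fast fibres, and Lmod2 (2.19), which lengthens thin filaments, had the largest changes, followed by the small heat shock protein Cryab (1.99) and Pdlim3 (1.96). In atrophy they were Actn3 (−2.11), the ubiquitin ligase Trim63 (1.93), Lmod2 (1.82), Cryab (1.59) and Myoz1 (−1.54). With the animal as a block none passed in atrophy or recovery, and 10 higher and 9 lower passed in repeated atrophy. After rescaling, the atrophy counts were 4 higher and 7 lower and the repeated atrophy counts 8 higher and 11 lower.

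Relatives of Csrp3 and Lmcd1 with LIM domains passed mostly as lower. Of these, Fhl1, Fhl2, Fhl3, Pdlim1, Pdlim3, Pdlim5, Pdlim7 and Ldb3 are also in the titin and Z-disc list. Zyx and Pxn are also in the costamere list, so the counts of these lists are not separate. Of 17, 1 was higher and 3 lower in atrophy, 2 were lower in recovery, and 1 was higher and 5 lower in repeated atrophy (median −0.12), and after rescaling the repeated atrophy counts were 1 higher and 8 lower. Of all rows, 20.3% were higher and 2.33% lower in atrophy, 4.4% and 3.33% in recovery, and 28.1% and 6.24% in repeated atrophy. Pdlim3 was the higher one (1.54 in atrophy, 1.96 in repeated atrophy), and Ldb3, a Z-disc protein that binds alpha-actinin (−1.76), Pdlim7 (−1.19), Fhl3 (−1.05) and Pdlim5 (−0.74) were lower in repeated atrophy. Of 18 costamere and adhesion genes, 4 were higher in atrophy, 4 higher and 1 lower in recovery, and 5 higher and 2 lower in repeated atrophy, against the same shares of all rows. Itgb1bp2, which encodes melusin, a muscle integrin partner, rose in recovery (1.66) and fell in repeated atrophy (−2.27). The integrin-linked kinase Ilk (0.71 and 0.92) and the integrin Itgb1 (0.80 and 0.84) were higher in atrophy and repeated atrophy. After rescaling, no costamere gene passed in atrophy, 4 were higher and 3 lower in recovery, and 2 were higher and 2 lower in repeated atrophy. With the block no gene of either list passed in atrophy or recovery, and in repeated atrophy 1 higher and 5 lower LIM genes and 5 higher and 2 lower costamere genes passed.

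Of the pathways known to act on members, the Hippo and TEAD list had 4 of 14 higher in atrophy and 3 higher and 2 lower in repeated atrophy, with 1 lower in recovery. Of all rows, 20.3% were higher and 2.33% lower in atrophy, 28.1% and 6.24% in repeated atrophy, and 4.4% and 3.33% in recovery. The secreted targets Ccn1 (1.98 and 1.64) and Ccn2 (0.96 and 1.52) and the cofactor Wwtr1 (0.91 and 1.09) were higher in both, and Tead1 was higher in atrophy (0.63) and lower in repeated atrophy (−0.58). After rescaling 1 gene was higher in atrophy, 4 were lower in recovery, and 2 were higher and 4 lower in repeated atrophy. Of 15 calcineurin and NFAT genes, 2 were higher and 1 lower in atrophy and 2 higher and 2 lower in repeated atrophy, with Rcan1, a calcineurin inhibitor and NFAT target, at 2.30 and 2.39 and Nfatc1 at −0.67 and −1.05. Of 13 SRF and MRTF genes, none passed in atrophy, Actc1 (3.88) and Vcl (0.62) were higher in recovery, and Junb (1.23) and Myocd (0.77) were higher and Srf (−0.80) lower in repeated atrophy. Actc1 encodes cardiac actin, also made in developing and regenerating muscle, and passed with the block (3.27, adjusted p = 0.0174). With the block none of these 3 lists had another gene passing in atrophy or recovery, and in repeated atrophy 3 Hippo and TEAD genes were higher and 3 lower, 2 calcineurin and NFAT genes higher and 1 lower, and 2 SRF and MRTF genes higher and 2 lower. After rescaling the SRF and MRTF list had 1 lower gene in atrophy and 1 higher and 1 lower in repeated atrophy. No gene of any list that passed changed sign on rescaling.

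Of 9 markers of slow fibres, 4 were lower in atrophy and in repeated atrophy, led by Myl3 (−1.20 and −2.44), Myh7 (−1.63 and −2.34) and Tpm3 (−1.14 and −1.67), while Csrp3 and Smpx were higher. Of all rows, 2.33% were lower in atrophy and 6.24% in repeated atrophy. With the block none passed in atrophy and 4 were lower in repeated atrophy, and without atrophy replicate 2 the atrophy counts were 2 higher and 3 lower. Their summed level ran from 1084 to 1871 CPM in repeated atrophy and from 2289 to 5155 CPM in control. Of 10 fast markers, 1 was lower in atrophy and 3 in repeated atrophy (Actn3, Atp2a1 and Casq1). With the block none passed in atrophy and 2 were lower in repeated atrophy, and without atrophy replicate 2 the atrophy count was 3 lower. Their summed level was 186461 CPM in atrophy replicate 2, within the control range of 176226 to 218379, and 72185 and 80216 CPM in the other atrophy limbs. The part of fibre type in the member values was not tested.

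Markers of other cell types were also read in each group, where 22.6% of all rows passed in atrophy (20.3% higher), 7.73% in recovery (4.4% higher) and 34.3% in repeated atrophy (28.1% higher, 6.24% lower). Of 6 fibroblast markers 5 were higher in recovery, and their summed level was 1079 to 2008 CPM in recovery against 203 to 560 in control. Of 6 macrophage and leukocyte markers 3 were higher in recovery (Cd68, Adgre1 and Cd74), with sums of 241 to 406 CPM against 56.4 to 227. None of either list passed in atrophy or repeated atrophy, nor with the animal as a block. After rescaling all 6 fibroblast and 5 of 6 leukocyte markers were higher in recovery. Their part in the recovery values of Ankrd23, Nrap, Smpx and Lmcd1 was not tested. Satellite cell markers had 2 of 5 higher in atrophy (Myf5 the larger at 2.63), 1 higher and 1 lower in recovery, and 2 higher and 1 lower in repeated atrophy. With the block none of them passed in atrophy or recovery, and 1 was higher and 1 lower in repeated atrophy. Endothelial markers had 1 of 6 lower in repeated atrophy, and after rescaling 4 of 6 there and 1 in atrophy, while with the block none passed. No smooth muscle and pericyte, Schwann cell or adipocyte marker passed against pooled control, whereas with the block the smooth muscle gene Tagln was lower in repeated atrophy (−0.52, adjusted p = 0.0464), and without atrophy replicate 2 there was 1 lower Schwann cell marker in atrophy. Of 7 skeletal muscle markers, which summed to 43787 CPM or more in every limb, 1 was lower in recovery and 1 higher in repeated atrophy, where after rescaling none was higher and 1 was lower.

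Across the 24 limbs, Ankrd1 and Csrp3 varied together with Pearson's r of 0.94 on log2(CPM + 1), and with r of 0.90 after the group means were removed. Smpx followed Ankrd1 with r of 0.85, and Lmcd1 ran against it with r of −0.54. These limbs share animals in pairs and share groups, so the values are a description. Of all rows with a mean of at least 10 CPM, the 3 most like Ankrd1 were the stress gene Gadd45a (0.97), Aif1l (0.96) and the transcription factor Runx1 (0.96). Those most like Csrp3 were the muscle heat shock protein Hspb7 (0.96), Cidea (0.94) and Ankrd1 (0.94). Those most like Smpx were Zfp367 (0.96), Spcs1 (0.95) and Rad50 (0.94), and those most like Ankrd23 were the kinase gene Mknk2 (0.95), Bsdc1 (0.94) and the heat shock factor gene Hsf4 (0.94). The other 4 members had lower values: Lmcd1 was most like Mgst3 (0.81), Trim72 (0.78) and Myl3 (0.78), Xirp2 like Hccs (0.83), Tnnt3 (0.83) and Ssr1 (0.80), Nrap like Plec (0.84), Atg2a (0.83) and Abca2 (0.83), and Ankrd2 like Dnajb5 (0.76), Hoga1 (0.76) and Abra (0.73).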

How the data were processed

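The deposited table of polyA RNA-seq held 14271 rows and 27 value columns, of which 24 matched a sample by name and 3 matched none and were not used. In Partek Flow the authors removed contaminant reads with Bowtie2 2.2.5 and aligned the untrimmed 59 bp paired-end reads to rn7 with STAR, and the annotation and counting settings are not given in the sources used here. Each deposited column sums to 1000000, so the values are CPM, although the study's methods name a median of ratios. Since 87.1 to 88.7% of low values were whole multiples of 1 read (tolerance 0.02), reads were not recovered and no count test was used.

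Exact duplicate rows (28) were dropped. Limma 3.58.1 (R 4.3.3, intensity trend) was fitted to log2(CPM + 1), on which folds of low genes are understated, over rows above 0 in at least 3 samples, for 18 limbs of TTX animals in 1 fit. Sham and right-limb comparisons had fits of their own. A gene passed at FC of at least 1.2 and adjusted p of at most 0.05. On simulated data for repeated atrophy against control (14101 genes, 200 changed) 100% of 4-fold, 62.7% of 2-fold and 16.4% of 1.5-fold changes were recovered, with 6 false calls of 125. The simulation gave every gene the same dispersion, started all groups from the control mean and held no animal effect. Its rates are therefore a check of the fit and not error rates for the real limbs.

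Both limbs of an animal share its number, so the labels pair them. Their deviations from group means correlated with a mean r of 0.27 over 12 animals and 0.12 over the 9 TTX animals, 4 of which were above 0.1. The animal as a block was the alternative fit, and between periods, which share no animal, it compares left-minus-right differences. Members and gene lists were chosen with earlier results of these data known, so no count over them is independent evidence. Genes named beside the members are the 3 rows most like each and, at most 5 a list and comparison, the list genes that passed with the largest change. Depth was inferred from the size of 1 read, and precision rests on 3 limbs a group. Alternatives were other pseudocounts, rescaling, filters, controls, the block and leaving out each animal in turn. A fit without an atrophy, recovery or repeated atrophy replicate leaves out both limbs of that animal. Sequences are from RefSeq.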

Additional observations from a re-analysis of the deposited data

Results flagged for a closer look

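Among the 9 control limbs, the highest value stood apart from the others for 3 of the 8 members, with a gap larger than Dixon's 95% limit of 0.493 of the range. Ankrd1 reached 1144 CPM (gap 0.556 of the range), Ankrd23 4366 CPM (0.513) and Nrap 3535 CPM (0.674), and all 3 came from control replicate 9, the right limb of atrophy animal 3. Dixon's limit assumes normal values and was applied to CPM, not to the log2 scale of the other tests. Only under that assumption does chance alone give such a value in about 1 of 20 groups. Skewed CPM can exceed the limit more often, the log2 values were not tested this way, and the genes share the limb.

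Csrp3 differed between limbs more in repeated atrophy animals than in sham animals, by 2.305 on the log2 scale (limma adjusted p = 0.0409), with the left limb higher in 3 of 3 repeated atrophy animals and in 1 of 3 sham animals. The call was lost in 9 of the 12 fits that left out 1 animal, with adjusted p up to 0.154.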

How the results depend on the processing

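Csrp3 and Smpx passed in repeated atrophy against control in each of 21 alternatives. With the animal as a replicate block, the member count went from 3 to 0 in atrophy, from 1 to 0 in recovery, from 2 to 0 for recovery against atrophy and from 2 to 0 for repeated atrophy against recovery. Between periods that fit compares left-minus-right differences. Right limbs of the same time point as control gave 0 in atrophy and 0 in recovery. The recovery count was 2, Ankrd23 and Smpx, under a trimmed mean rescaling, a median of ratios rescaling, a filter of a mean of at least 10 CPM, a fit of only the groups compared, and rows summed per symbol, the last chosen after seeing the data. Leaving out 1 animal gave 0 to 4 members in atrophy (0 without atrophy replicate 1), 0 to 2 in recovery, 1 to 3 for recovery against atrophy, 1 to 2 for repeated atrophy against recovery, 0 to 2 for right limbs across time points, and, against sham, 0 to 2 in atrophy and in repeated atrophy.

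Lmcd1 in atrophy changed sign to −0.157 with either rescaling, Lmcd1 in recovery against atrophy to −0.019 with the block, and Ankrd1 in repeated atrophy against atrophy to −0.334 without atrophy replicate 2 (up to 1.198 without replicate 1). The cause was not tested. Of 1344 alternative member values, 1255 counted as the same, 59 no longer passed, 21 newly passed, 4 were reversed, as given above, and 5 moved. The same meant an unchanged direction and side of the threshold, or a sign change without passing in either setting. For Ankrd1 and Lmcd1, outside recovery against control, the same meant an unchanged sign and a shift below the within-group SD. A larger shift of these genes was called moved. Precision rests on 3 limbs a group.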
